A study of Mus musculus with 5 samples.

Results

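The genes described here are the lysozymes and ribonucleases of the macrophage secretory and lysosomal pathway, namely the lysozyme genes *Lyz1* and *Lyz2*, the RNase A family genes *Rnase4* and *Ang*, the RNase T2 genes *Rnaset2a* and *Rnaset2b*, and the ribonuclease inhibitor gene *Rnh1*. These 7 of 55487 genes were chosen by function and because the counts of *Rnase4* split by genotype in the same libraries, so the genotype values of all 7 are a description and carry no test. The libraries were made from aortic macrophages, sorted from male mice fed chow to the age of 8 weeks and a Western diet for the next 10 weeks. Both genotypes lacked *Apoe*, which makes mice prone to atherosclerosis, and both carried a floxed *Zeb1* allele (*Zeb1* fl/fl). The 2 Zeb1WT/ApoeKO libraries came from mice without Cre. The 3 Zeb1ΔM/ApoeKO libraries came from mice in which LysM-Cre, a Cre recombinase expressed from the *Lyz2* locus in monocytes, macrophages and granulocytes, deletes *Zeb1*, a zinc finger repressor of transcription. One of the genes described, *Lyz2*, is therefore also the driver of the deletion, and the Zeb1ΔM/ApoeKO mice carry an altered copy of it. How many copies were altered is not given in the sources used here.

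Lysozymes cut the peptidoglycan wall of bacteria. Mice have a tandem pair of lysozyme genes, of which *Lyz2* is the abundant one in macrophages and *Lyz1* is best known from the Paneth cells of the small intestine. The RNase A family enzymes are small secreted ribonucleases with roles in host defence, and angiogenin, the product of *Ang*, also cleaves tRNA and promotes vessel growth. RNase T2 enzymes degrade RNA in the acid lysosome, where macrophages digest the nucleic acid of engulfed cells. The ribonuclease inhibitor encoded by *Rnh1* stays in the cytosol, where it binds RNase A family enzymes and blocks them.

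The libraries were made with a kit for very small amounts of RNA from cells of 3 mice pooled per genotype and condition, and how the pools relate to the libraries is not given in the sources used here. Total counts were between 20118545 and 50649912 per library, and 3 counts, taken as the floor, corresponded to between 0.0592 and 0.149 CPM, the counts of a gene relative to the library's total. Zeb1ΔM/ApoeKO replicate 1 stood apart: it had 20919 genes with a count, against 7395 to 10689 in the other 4 libraries, but only 870 genes with at least 100 counts, against 1714 to 4421. Zeb1ΔM/ApoeKO means are given with and without this library. *Zeb1* had 22 counts in that library and none in the other 4, so the counts did not check the deletion, and *Apoe* had between 0 and 86 counts. Of 12 macrophage markers 7 had over 3 counts in every library, among them *Adgre1* and *Ptprc* (which encode surface proteins used in the sort), *C1qb* and *C1qc*. The other 5 did not. *Itgam*, which encodes CD11b, had 441 and 3074 counts in the Zeb1WT/ApoeKO libraries and 0, 33 and 1988 in the Zeb1ΔM/ApoeKO libraries. *Cd68*, *C1qa* and *Fcgr1* had 0 in Zeb1WT/ApoeKO replicate 1 and at most 10 in Zeb1ΔM/ApoeKO replicate 1, and *Mertk* had at most 22 in any library. Summed neutrophil markers ranged from 138 to 3592 CPM of total counts and T cell markers from 1.15 to 4532. The part of such cells in the values below was not tested. In sorted cells, fewer cells of one kind and less RNA per cell cannot be told apart.

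Across the 7905 genes that passed the filter on low counts, edgeR's quasi-likelihood test called 0 genes between the genotypes (0% of the genes tested), with 86 at an unadjusted p under 0.05. DESeq2, run on the whole table with its own filter, called 790 of the 6519 genes to which it gave an adjusted p, and limma-voom called 234 of 7905. *Lyz1* was among the calls of DESeq2, which gave no adjusted p to *Rnase4* or *Ang*, and *Rnase4* was among those of limma-voom. None of the other genes described here was called by either tool. All 7 genes described here passed the filter. In 3 of the 7, the values of the genotypes did not overlap after TMM normalization (trimmed mean of M values, which scales the libraries by the bulk of their genes). *Lyz1* and *Rnase4* were higher in every Zeb1ΔM/ApoeKO library, as were 6.68% of all genes tested, and *Lyz2* was lower in every one, as were 4.54%. Because *Rnase4* was selected on this very contrast, nothing is read from these calls and counts.

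**Figure D1:**
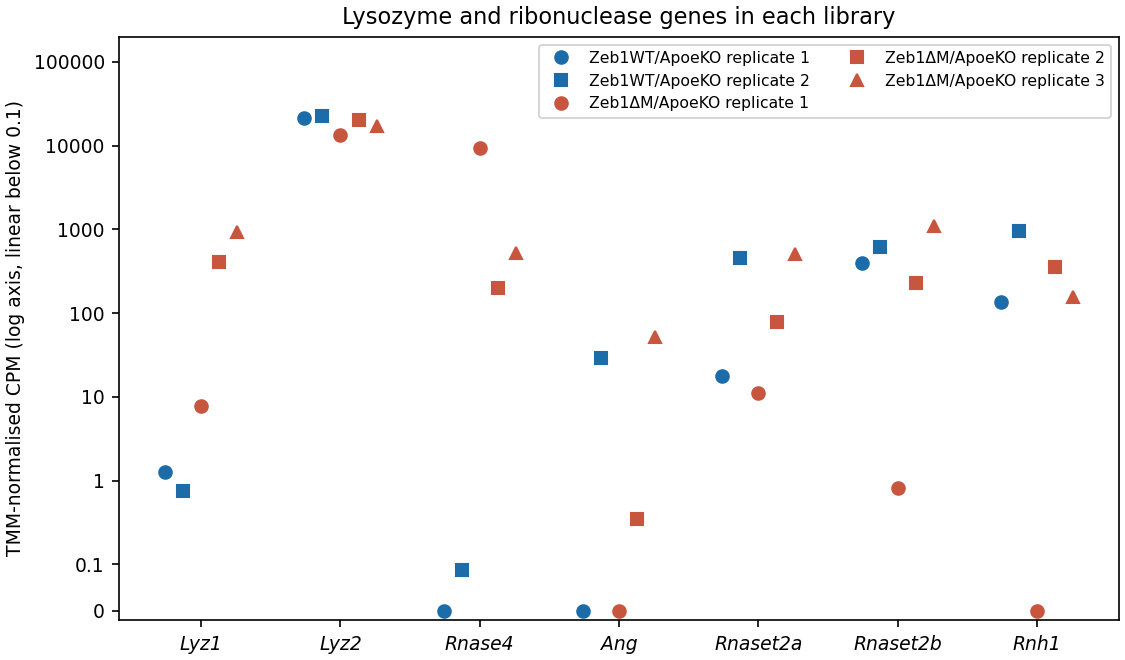
TMM-normalised CPM (vertical axis, logarithmic above 0.1 and linear below it) of the 7 genes in each library. Each point is 1 library, blue for Zeb1WT/ApoeKO and red for Zeb1ΔM/ApoeKO, with the replicate given by the symbol: *Lyz2* lies between 13335 and 22555 CPM in all 5 libraries, while *Rnase4* lies between 0 and 9431.

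*Lyz2* (ENSMUSG00000069516.8, chr10:117277331-117282321, minus strand, GRCm38, 4 exons) was the highest of the 7 genes in every library. It had 596080 and 777264 counts in Zeb1WT/ApoeKO replicates 1 and 2, and 161607, 856923 and 869804 in Zeb1ΔM/ApoeKO replicates 1, 2 and 3. It ranked as gene 2 by count in 4 libraries and as gene 35 in Zeb1ΔM/ApoeKO replicate 1. The transcript was therefore among the most abundant of the cells in both genotypes, including the 3 libraries from mice with Cre in the gene.

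*Lyz2* had 21582 and 22555 TMM-normalised CPM in the Zeb1WT/ApoeKO libraries and 13335, 20037 and 17312 in the Zeb1ΔM/ApoeKO libraries. The groups did not overlap, with means of 22068 ± 688 (SD, n = 2) and 16895 ± 3370 (SD, n = 3), a difference of 23.4%. Without Zeb1ΔM/ApoeKO replicate 1 the latter mean was 18675 ± 1926 (SD, n = 2). The fitted log2 fold change of Zeb1ΔM/ApoeKO over Zeb1WT/ApoeKO was −0.39 with a standard error of 1.32. The separation depended on the scaling. When libraries were scaled by total counts alone, *Lyz2* had 29628 and 22467 CPM against 6631, 23955 and 17173, and the genotypes overlapped, as they did under RLE size factors and upper-quartile normalization.

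How much *Lyz2* varied over the 5 libraries depended on the scaling too. After TMM the SD of its log2(CPM + 0.1) was 0.31, against a median of 3.62 over the 7905 genes tested, and 1 gene, *Ndufa4* (a mitochondrial respiratory chain component, named after its value was seen), had a smaller SD. Genes without counts in some libraries have large SDs, so the 299 genes with over 100 counts in every library are the closer comparison. Of these 299, 1 had a smaller SD than *Lyz2* after TMM, 8 after RLE, 49 with total counts and 57 after upper-quartile normalization. The highest *Lyz2* value was 1.69 times the lowest after TMM, 2.83 times after RLE and 93.7 times after upper-quartile normalization. By the root mean square difference in log2 CPM over the 5 libraries, the genes nearest to *Lyz2* were *Malat1* (a nuclear long non-coding RNA) at 0.86, *Ftl1* (ferritin light chain) at 0.90, *Actb* (β-actin) at 1.01, *Tmsb4x* (thymosin β4, which binds actin) at 1.32 and *CT010467.1* (annotated as ribosomal RNA) at 1.69. All 5 are highly counted genes.

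*Lyz1* (ENSMUSG00000069515.6, chr10:117287797-117292868, minus strand, GRCm38, 4 exons) lies 5475 bases from *Lyz2*. The coding sequences of the pair, 444 bases each, were identical at 422 positions (95.05%) and differed at 22. A stretch of 75 bases, the length of a read, is shown because it holds 12 of these differences, in capitals, and so is a place where reads of the genes can be told apart. It covers coding bases 58 to 132, in the 5′ to 3′ direction of the gene, chr10:117292707-117292781 for *Lyz1* and chr10:117282111-117282185 for *Lyz2*, both on the minus strand of GRCm38.
Lyz1: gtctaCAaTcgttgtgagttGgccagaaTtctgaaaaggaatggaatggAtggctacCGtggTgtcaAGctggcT
Lyz2: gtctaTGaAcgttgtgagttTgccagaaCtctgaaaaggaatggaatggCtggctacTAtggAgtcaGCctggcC
Of the 1189 windows of 75 bases in the *Lyz1* transcript, 74 (6.22%) also occurred in the *Lyz2* transcript, as did 74 of 1242 (5.96%) the other way round, and reads there could have been assigned to either gene. Because *Lyz2* had so many counts, 5.96% of them came to 35515 and 46310 in the Zeb1WT/ApoeKO libraries and to 9629, 51057 and 51824 in the Zeb1ΔM/ApoeKO libraries. Each is more than the *Lyz1* count of that library, and the part of read assignment in the *Lyz1* values was not tested.

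*Lyz1* had 35 and 26 counts in Zeb1WT/ApoeKO replicates 1 and 2, and 94, 17332 and 46374 counts in Zeb1ΔM/ApoeKO replicates 1, 2 and 3. In TMM-normalised CPM these were 1.27 and 0.754 against 7.76, 405 and 923. Every Zeb1ΔM/ApoeKO library was above both Zeb1WT/ApoeKO libraries, but replicate 1 was far nearer to them than to the other two of its own genotype. The means were 1.01 ± 0.363 (SD, n = 2) and 445 ± 459 (SD, n = 3), a ratio of 441, with a fitted log2 fold change of 8.78 and a standard error of 5.73. Without Zeb1ΔM/ApoeKO replicate 1 the mean was 664 and the ratio 657, against 7.67 for that replicate alone. Under RLE, upper-quartile and total-count scaling the genotypes of *Lyz1* did not overlap either. The 4 Paneth cell markers (*Defa17*, *Defa24*, *Mmp7*, *Itln1*) had 0 counts in all 5 libraries.

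The share of *Lyz1* among the counts of both lysozyme genes does not depend on the scaling between libraries. It was 0.00587% (exact 95% binomial interval 0.00409 to 0.00817) and 0.00335% (0.00219 to 0.0049) in the Zeb1WT/ApoeKO libraries. In the Zeb1ΔM/ApoeKO libraries it was 0.0581% (0.047 to 0.0711), 1.98% (1.95 to 2.01) and 5.06% (5.02 to 5.11). The lowest Zeb1ΔM/ApoeKO share was above both Zeb1WT/ApoeKO shares. These intervals and the floor treat reads as independent, but PCR copies of 1 molecule are counted as separate reads, so the intervals can be too narrow. They cover neither the spread between libraries nor how reads that fit both genes were assigned, and they give no test of the genotypes. *Lyz2* supplied most lysozyme counts in all libraries, and the sum of the pair had a fitted log2 fold change of −0.35 with a standard error of 1.31.

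**Figure D2:**
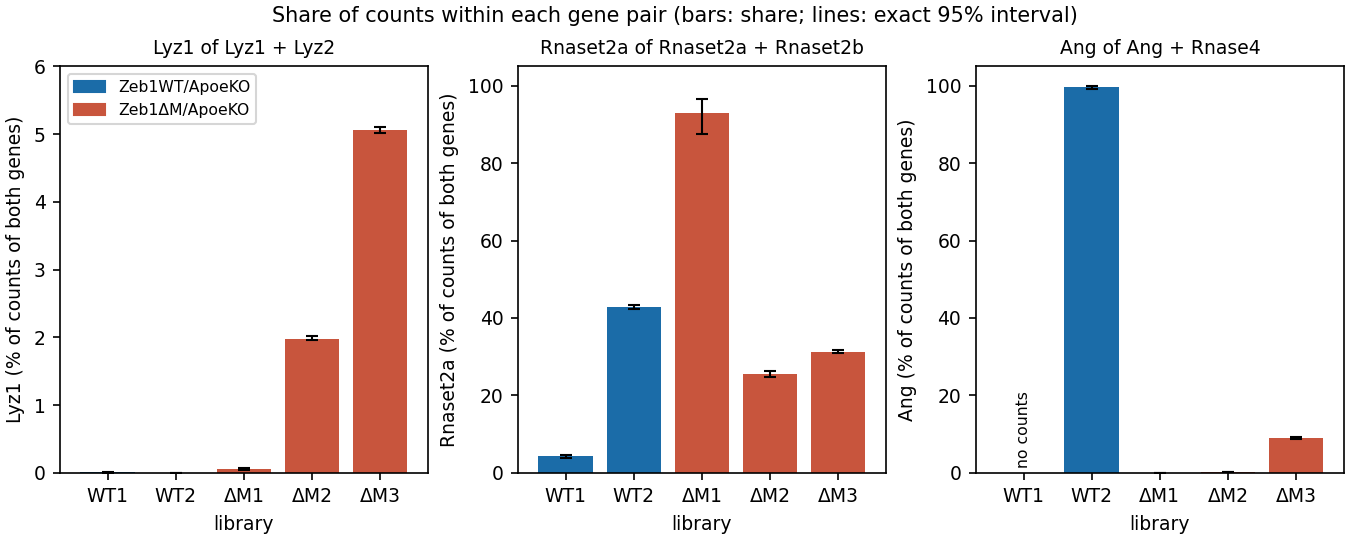
Share of the first gene among the counts of both genes of a pair, in percent, for each library (WT1 and WT2 are Zeb1WT/ApoeKO replicates 1 and 2, ΔM1 to ΔM3 are Zeb1ΔM/ApoeKO replicates 1 to 3). Bars give the share and lines its exact 95% interval: *Lyz1* reaches 5.06% in ΔM3, *Rnaset2a* ranges from 4.27% to 93.0%, and *Ang* falls from 99.7% in WT2 to 9.0% or less in the ΔM libraries, with no counts of either gene in WT1.

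*Rnase4* (ENSMUSG00000021876.15, chr14:51091077-51106151, plus strand, GRCm38, 2 exons) and *Ang* (ENSMUSG00000072115.11, chr14:51091150-51102009, plus strand, 2 exons) overlap over 10860 bases. They share exon stretches of 104 bases (chr14:51091150-51091253) and 115 bases (chr14:51096359-51096473), while their coding sequences lie in different exons and matched at 256 of 472 aligned positions (54.24%). Reads of the shared stretches could be counted for either gene. RefSeq gives *Rnase4* more than 1 start, and *Ang* shares one of them. The 250 bases before the shared start are shown because they are an upstream window of both genes, chr14:51090827-51091076, plus strand, GRCm38.p6.
Rnase4 and Ang: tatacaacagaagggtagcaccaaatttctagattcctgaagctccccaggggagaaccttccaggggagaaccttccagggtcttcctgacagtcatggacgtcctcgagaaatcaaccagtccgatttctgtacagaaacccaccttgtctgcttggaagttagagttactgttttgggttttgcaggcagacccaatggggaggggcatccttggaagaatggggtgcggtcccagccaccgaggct
The other *Rnase4* window, chr14:51095750-51095999, is not one of *Ang*. Neither window has a match to CAGGTG or, on the other strand, CACCTG, the E-box letters that ZEB1 is known to bind, so no base is in capitals. These letters occurred in 5657 of 32851 such windows of all genes (17.2%). All 7 genes were matched in the RefSeq table, and of their 11 windows, 1 of *Rnaset2a* held the letters, starting 68 bases before the start site. Only these full letters were searched, and no shorter part of them. A match is a description of the letters and no match says nothing of the factor.

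*Rnase4* had 0 and 3 counts in Zeb1WT/ApoeKO replicates 1 and 2, both at or under the floor. It had 114295, 8569 and 26473 counts in Zeb1ΔM/ApoeKO replicates 1, 2 and 3. These were 9431, 200 and 527 TMM-normalised CPM, all far above the Zeb1WT/ApoeKO values of 0 and 0.0871, and the highest was 47.1 times the lowest. The Zeb1ΔM/ApoeKO mean was 3386 ± 5238 (SD, n = 3). Set against the mean Zeb1WT/ApoeKO floor of 0.0978 CPM, computed from 3 counts per library, it was 34611-fold higher. Most of that mean came from replicate 1, and without it the mean was 364 CPM, 3717-fold higher than the floor. Replicate 2, the lowest of its genotype, was 2048-fold higher. These ratios are no lower bounds, because the floor reflects depth only. *Cd68*, for example, had 0 counts in Zeb1WT/ApoeKO replicate 1 and 44664 in replicate 2. The fitted log2 fold change of 16.11, with a standard error of 4.57, depends on the small count added to zeros and is no bound either.

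Among the genes of its library, *Rnase4* ranked 56, 1055 and 346 by count in Zeb1ΔM/ApoeKO replicates 1, 2 and 3. Its SD over the 5 libraries was 7.33 on the log2 scale, and 9 of the 7905 genes tested had a larger one. The 5 genes nearest to it over the 5 libraries were *Fkbp2* (a prolyl isomerase of the endoplasmic reticulum) at a root mean square difference in log2 CPM of 1.53, *Trappc3* (a subunit of the TRAPP vesicle tethering complex) at 2.09, *Erp29* (an endoplasmic reticulum chaperone) at 2.31, *Dpep2* (a membrane dipeptidase) at 2.67 and *Aldh3b1* (an aldehyde dehydrogenase) at 2.83. They had at most 17 counts in any Zeb1WT/ApoeKO library, which follows from their choice by likeness to *Rnase4*. *Fkbp2* was the closest, with 0 and 0 counts against 58914, 14868 and 3533.

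*Ang* did not follow *Rnase4*. It had 0 and 1016 counts in the Zeb1WT/ApoeKO libraries and 0, 15 and 2619 counts in the Zeb1ΔM/ApoeKO libraries, that is 0 and 29.5 against 0, 0.351 and 52.1 TMM-normalised CPM. Each genotype thus had 1 library at 0 and 1 with 1016 or 2619 counts, and the groups overlapped. Means were 14.7 ± 20.8 (SD, n = 2) and 17.5 ± 30.0 (SD, n = 3), or 26.2 ± 36.6 (SD, n = 2) without Zeb1ΔM/ApoeKO replicate 1. Over all 5 libraries the fitted log2 fold change was 0.25 with a standard error of 4.64. Zeb1ΔM/ApoeKO replicate 1 held the most *Rnase4* counts and no *Ang* count, whereas Zeb1WT/ApoeKO replicate 2 held 3 *Rnase4* counts beside its 1016 of *Ang*.

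As a share of the counts of both genes, *Ang* was 99.7% (exact 95% interval 99.1 to 99.9) in Zeb1WT/ApoeKO replicate 2, while replicate 1 had no count of either. It was 0% (0 to 0.00323), 0.175% (0.0978 to 0.288) and 9.0% (8.68 to 9.34) in Zeb1ΔM/ApoeKO replicates 1, 2 and 3. The 4 libraries with counts therefore split into 1 in which nearly all counts were of *Ang* and 3 in which most were of *Rnase4*. The summed counts of the pair, which do not depend on how shared reads were assigned, came to 0 and 29.6 against 9425, 201 and 579 CPM. In the Zeb1ΔM/ApoeKO libraries these sums were mostly *Rnase4*, on which the genes were selected. The fitted log2 fold change was then 7.84 with a standard error of 3.43.

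Of the 18 other RNase A family genes 6 had 0 counts in every library and 2 passed the filter, *Rnase6* and *Ear2*, both myeloid ribonucleases. *Rnase6* had 0 and 91.8 TMM-normalised CPM in the Zeb1WT/ApoeKO libraries and 1.16, 1240 and 272 in the Zeb1ΔM/ApoeKO libraries. *Ear2* had 0 and 58.0 against 0.413, 513 and 376. Both genes were low in replicate 1 of either genotype and high in the other 3 libraries, so that the genotypes overlapped, unlike those of *Rnase4*. Their fitted log2 fold changes were 3.46 and 3.35, with standard errors of 4.22 and 4.71, and neither was called by edgeR (adjusted p = 1 for both).

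**Figure D3:**
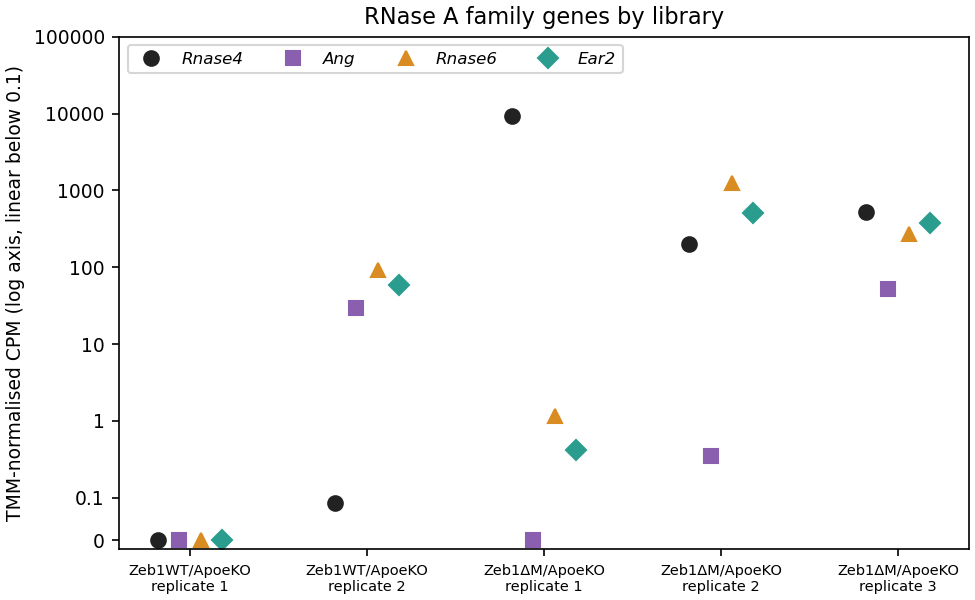
TMM-normalised CPM (vertical axis, logarithmic above 0.1 and linear below it) of the 4 RNase A family genes tested, by library. Each point is 1 gene in 1 library: *Rnase4* stands at 9431 in Zeb1ΔM/ApoeKO replicate 1, where *Ang* is at 0 and *Rnase6* and *Ear2* are at 1.16 and 0.413.

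*Rnaset2a* (ENSMUSG00000095687.2, chr17:8115445-8148097, minus strand, GRCm38, 10 exons) and *Rnaset2b* (ENSMUSG00000094724.8, chr17:6970634-7011299, plus strand, 10 exons) lie 1104145 bases apart on opposite strands. Their coding sequences were identical at 777 of 777 positions (100%). The first 75 coding bases, 5′ to 3′, are shown as an example of a read that fits both genes, at chr17:8147620-8147694 on the minus strand and chr17:6978998-6979072 on the plus strand. No base is in capitals, since none differs.
Rnaset2a and Rnaset2b: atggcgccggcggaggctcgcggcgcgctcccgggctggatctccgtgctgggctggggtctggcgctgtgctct
Of the 2382 windows of 75 bases in the *Rnaset2a* transcript, 1739 (73.0%) also occurred in *Rnaset2b*. RSEM divides such reads between the genes by estimation, so the separate values of the pair are uncertain, and their sum is the firmer measure.

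*Rnaset2a* had 493 and 15885 counts in the Zeb1WT/ApoeKO libraries and 133, 3333 and 25416 in the Zeb1ΔM/ApoeKO libraries. *Rnaset2b* had 11054 and 21206 against 10, 9683 and 55702. The sum of both had 418 and 1078 TMM-normalised CPM in the Zeb1WT/ApoeKO libraries and 11.8, 304 and 1616 in the Zeb1ΔM/ApoeKO libraries. Zeb1ΔM/ApoeKO replicate 3 was the highest library and replicate 1 the lowest, so that the Zeb1ΔM/ApoeKO values enclosed the others. The sum had means of 748 ± 467 (SD, n = 2) and 644 ± 854 (SD, n = 3), and a fitted log2 fold change of −0.22 with a standard error of 3.05. Without Zeb1ΔM/ApoeKO replicate 1 its mean was 960 ± 927 (SD, n = 2), above that of Zeb1WT/ApoeKO, and the fitted changes of *Rnaset2a* and *Rnaset2b* turned positive, at 0.21 and 0.20. Taken singly with all libraries, the values were −0.27 ± 3.93 for *Rnaset2a* and −0.19 ± 3.29 for *Rnaset2b* (log2 fold change ± standard error).

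The split of the counts between the RNase T2 copies also varied from library to library. *Rnaset2a* took 4.27% (exact 95% interval 3.91 to 4.65) and 42.8% (42.3 to 43.3) of the counts of both in the Zeb1WT/ApoeKO libraries. It took 93.0% (87.5 to 96.6), 25.6% (24.9 to 26.4) and 31.3% (31.0 to 31.7) in Zeb1ΔM/ApoeKO replicates 1, 2 and 3. The share in replicate 1 rests on 143 counts of the pair. Replicate 1 of each genotype held the extremes, and the other 3 libraries lay between 25.6% and 42.8%.

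*Rnh1* (ENSMUSG00000038650.15, chr7:141160326-141172857, minus strand, GRCm38, 10 exons) had 3765 and 33347 counts in the Zeb1WT/ApoeKO libraries and 0, 15024 and 7756 in the Zeb1ΔM/ApoeKO libraries. In TMM-normalised CPM these were 136 and 968 against 0, 351 and 154, so that Zeb1ΔM/ApoeKO replicates 2 and 3 lay between the Zeb1WT/ApoeKO libraries and replicate 1 lay under both. Means were 552 ± 588 (SD, n = 2) and 169 ± 176 (SD, n = 3), or 253 ± 139 (SD, n = 2) without Zeb1ΔM/ApoeKO replicate 1. With all 5 libraries the fitted log2 fold change was −1.71 with a standard error of 3.58. Under upper-quartile normalization all 3 Zeb1ΔM/ApoeKO libraries fell under both Zeb1WT/ApoeKO libraries, which they did not under TMM, RLE or total counts. The library without a single *Rnh1* count, Zeb1ΔM/ApoeKO replicate 1, was the one with the most *Rnase4*, and it had no count of *Ang* either.

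Per kilobase of transcript, which allows levels of different genes to be compared, the order of the 7 genes differed from library to library below *Lyz2*. *Lyz2* was first throughout, with 16400 and 17139 TMM-normalised CPM per kilobase in the Zeb1WT/ApoeKO libraries and 10133, 15225 and 13155 in the Zeb1ΔM/ApoeKO libraries. The gene next to it was *Rnaset2b* (164) in Zeb1WT/ApoeKO replicate 1 and *Rnh1* (584) in replicate 2. In Zeb1ΔM/ApoeKO replicate 1 it was *Rnase4* (6213), and in replicates 2 and 3 it was *Lyz1* (321 and 731). The last places were held by *Rnase4* in both Zeb1WT/ApoeKO libraries, jointly with *Ang* at 0 in replicate 1, and by *Ang* in all 3 Zeb1ΔM/ApoeKO libraries, jointly with *Rnh1* at 0 in replicate 1. Of the 7 genes, 5 and 6 had over 3 counts in the Zeb1WT/ApoeKO libraries, and 5, 7 and 7 in the Zeb1ΔM/ApoeKO libraries.

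The 7 genes had a median log2 fold change of −0.19, 3 being positive and 4 negative, against a median of 0.78 over all 7905 genes tested, of which 4811 were positive. The median standard error over all genes tested, 4.60, exceeded the median size of the change, 2.22. Other scalings moved the median of all genes by 0.26 (RLE), −0.79 (upper quartile) and −0.35 (total counts). Under these scalings the fitted changes of *Lyz1* (3.74 to 8.55) and *Rnase4* (15.15 to 20.34) remained positive, as did that of *Ang* (0.21 to 0.47). Those of *Lyz2* (−2.43 to −0.27), *Rnaset2a* (−1.41 to −0.098), *Rnaset2b* (−4.88 to −0.36) and *Rnh1* (−4.35 to −1.62) remained negative. Their lowest values were those under upper-quartile normalization.

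**Figure D4:**
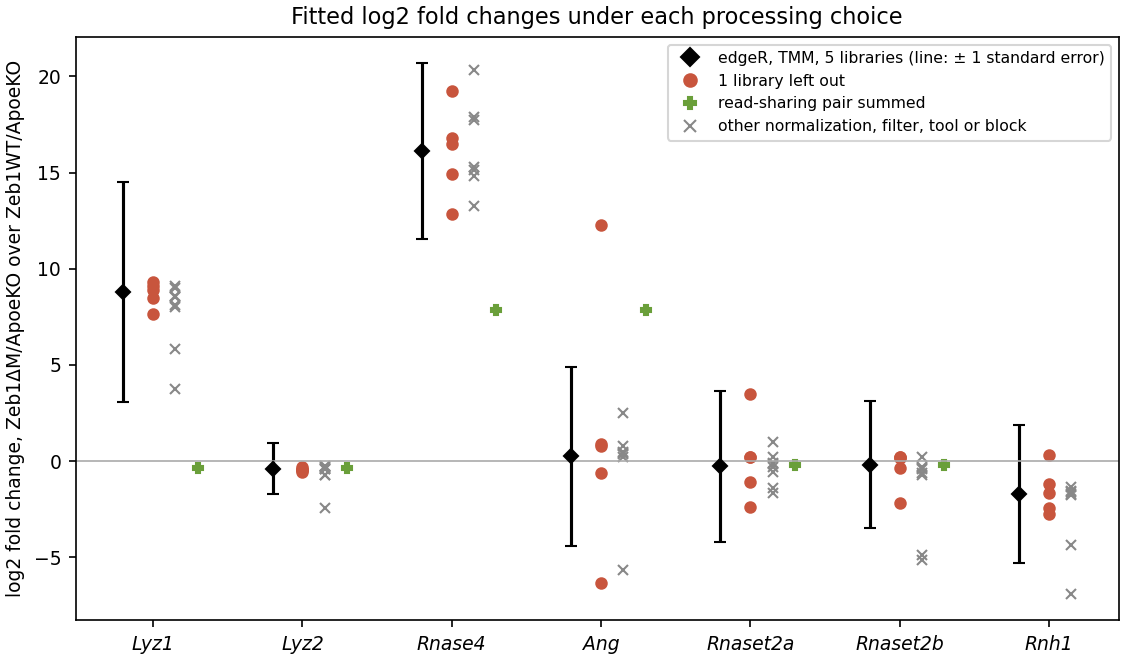
Fitted log2 fold change of Zeb1ΔM/ApoeKO over Zeb1WT/ApoeKO (vertical axis) for each gene. The diamond with its line is the edgeR value ± 1 standard error with all 5 libraries, circles leave out 1 library, plus signs sum the gene with its partner, and crosses are other scalings, filters, tools or the replicate block: *Rnase4* ranges from 7.84 to 20.34 and *Ang* from −6.32 to 12.27.

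With 1 library left out at a time, the fitted log2 fold change of *Rnase4* lay between 12.83 (without Zeb1ΔM/ApoeKO replicate 1) and 19.27 (without Zeb1WT/ApoeKO replicate 2). That of *Lyz1* lay between 7.66 and 9.32, and that of *Lyz2* between −0.56 and −0.32. *Ang* ranged from −6.32 without Zeb1ΔM/ApoeKO replicate 3 to 12.27 without Zeb1WT/ApoeKO replicate 2. *Rnaset2a* went from −2.40 to 3.49 and *Rnh1* from −2.75 to 0.32, the higher value of each again without Zeb1WT/ApoeKO replicate 2. *Rnaset2b* lay between −2.17 and 0.20. A genotype left with 1 library was assumed to vary like the other.

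Other genes of these pathways were counted in the same way, beside the 6.68% of all genes tested that lay higher and the 4.54% that lay lower without overlap, and nothing is read from counts this small. Of 8 other lysozyme-like genes 6 had no count in any library and none passed the filter. Among 12 tested genes of endolysosomal nucleic acid breakdown and sensing, edgeR called 0, and 1 was without overlap in each direction. *Pld3*, a lysosomal exonuclease, had 1460 and 14718 counts in the Zeb1WT/ApoeKO libraries and 6, 0 and 0 in the Zeb1ΔM/ApoeKO libraries. *Slc15a3*, a lysosomal peptide transporter, had 2 and 1 against 377, 1707 and 72. *Pld4*, the partner exonuclease of *Pld3*, overlapped, with 14353 and 43419 against 534, 80030 and 84071.

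Among 8 tested intracellular ribonucleases edgeR called 0, and 1 lay lower without overlap, *Xrn2*, a nuclear exonuclease. It had 37.1 and 72.5 CPM after TMM against 0, 0 and 22.5, and did not overlap with total counts either (50.9 and 72.2 against 0, 0 and 22.3). Of 6 tested genes for secreted antimicrobial and chitinase-like proteins, edgeR called 0, and *S100a9*, a calcium-binding alarmin and neutrophil marker, lay lower without overlap, with 29483 and 10969 counts against 0, 4180 and 1041. Its partner *S100a8* overlapped, with 33862 and 11811 against 33132, 22405 and 962. Among 10 cathepsins and related genes edgeR called 0, and *Cst3*, the secreted inhibitor of cysteine cathepsins, lay higher without overlap, with 120662 and 141078 counts against 475684, 272457 and 386342. The cathepsin genes *Ctsa*, *Ctsb*, *Ctsc* and *Ctss* had over 100 counts in every library and overlapped. The median log2 fold changes of these lists, in the order given from the endolysosomal genes, were 0.10, −1.05, 0.47 and 0.09, against 0.78 over all genes tested. The 6 fibroblast markers, of cells that the sort on CD45 should remove, summed to 0.149 and 0 CPM of total counts in the Zeb1WT/ApoeKO libraries and to 1.93, 531 and 2.23 in the Zeb1ΔM/ApoeKO libraries. *Dcn*, with 19005 counts in Zeb1ΔM/ApoeKO replicate 2 and at most 1 elsewhere, made up nearly all of the highest sum. *Lum* had 0 counts in every library, *Col1a1* at most 2, *Col3a1* 20 and *Pdgfra* 16 in Zeb1ΔM/ApoeKO replicate 1, and *Col1a2*, the 1 marker without overlap, had 0 and 0 against 8, 5 and 111. Adipocyte markers (4 genes) summed to 456 and 51.9 CPM of total counts against 1250, 0 and 11.0. Endothelial markers (6 genes) summed to 72.5 and 131 against 2.46, 0.196 and 224. What part such cells had in the *Rnase4* counts was not tested.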

How the data were processed

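RNAseq was performed on macrophages (viable cells positive for CD45 and for the product of *Adgre1* per the labels, and for CD11b in the study's methods) sorted from whole aortas per the labels. The authors mapped 75-base read pairs to GRCm38 with STAR 2.5.3a, quantified genes with RSEM 1.3.0, and deposited expected counts as whole numbers, neither normalized nor filtered. Strand use in counting is not given in the sources used here. The labels give the genotypes (2 and 3 libraries) but do not say that libraries came from separate animals. The study's methods describe all replicates as biologically independent, and also that cells of several mice were mixed. If libraries were drawn from one mixture, p-values measure only the spread between these libraries.

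Genotypes were compared by edgeR 4.0.16 under R 4.3.3 (filterByExpr with a minimum count of 10, TMM, quasi-likelihood test without covariates, Benjamini-Hochberg adjusted p under 0.05). Fits used the default prior count of edgeR, while log2 CPM for the nearest genes and the replicate correlations used a prior count of 2. Standard errors of edgeR were the size of the log2 fold change divided by the square root of the F statistic. CPM are TMM-normalised unless total counts are stated. The members and lists were chosen with earlier results of these data known. Genes named were the 7 members, *Zeb1*, *Apoe*, list genes with over 100 counts in every library or without overlap between genotypes, and the 5 genes nearest to *Rnase4* and *Lyz2*. *Rnase6*, *Ear2*, *Ndufa4*, *Itgam*, *Cd68*, *C1qa*, *Fcgr1*, *Mertk*, the fibroblast markers other than *Col1a2* and the Paneth cell markers fell outside that rule and were chosen after their values were seen.

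Coordinates and coding sequences came from GENCODE M21 and upstream windows from RefSeq, both on GRCm38. For each gene the transcript with the longest coding sequence was compared in 75-base windows. Lengths for values per kilobase came from the same transcripts. Alternatives used DESeq2 1.42.0, limma-voom (limma 3.58.1), other scalings and filters, the replicate number as a block, each library left out, and paired genes summed. Intervals were computed with scipy 1.17.1 and alignments with Biopython 1.88.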

Additional observations from a re-analysis of the deposited data

How the results depend on the processing

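No gene was called by edgeR under RLE size factors, upper-quartile normalization, all 27091 genes with a count, or the 733 genes with at least 10 counts in every library, and leaving out 1 library gave 0 to 0 calls. DESeq2 called 790 genes (448 higher and 342 lower in Zeb1ΔM/ApoeKO) and limma-voom 234 (175 and 59), and the cause was not tested. The number of genes without overlap, 887 after TMM, was 861 under RLE, 858 under upper-quartile and 929 under total-count scaling. It was 124 (53 higher, 71 lower) among the 733 genes with at least 10 counts in every library, where fewer genes were compared. These alternatives for overlap, those for the spread of *Lyz2* and the means without Zeb1ΔM/ApoeKO replicate 1 were chosen after seeing the data.

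Replicate numbers 1 and 2 occur in both genotypes, but no source names a shared batch. Deviations from the genotype means correlated at 0.24 for number 1 and 0.071 for number 2. Between Zeb1WT/ApoeKO replicate 2 and Zeb1ΔM/ApoeKO replicate 3 the correlation was 0.18. With 2 Zeb1WT/ApoeKO libraries their deviations mirror each other, so these values cannot show whether libraries were paired. With a replicate block edgeR called 0 genes (7 at an unadjusted p under 0.05, against 86 without the block), and the fitted log2 fold change was 15.30 for *Rnase4*, 5.83 for *Lyz1* and −0.43 for *Lyz2*. It was −1.63 for *Rnaset2a*, −5.15 for *Rnaset2b* (−0.19 without the block), −6.89 for *Rnh1* (−1.71 without it) and −5.66 for *Ang*, whose sign was the opposite of that without the block.

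The fitted sign of *Lyz2* was negative in all 14 alternatives and that of *Rnase4* positive in all 13. *Lyz1* changed sign in 1 of 14, when summed with *Lyz2* (−0.35), *Rnh1* in 1 of 12, *Ang* in 3 of 13, *Rnaset2b* in 4 of 14 and *Rnaset2a* in 5 of 14. *Rnase4*, *Ang* and *Rnh1* had no value under the filter of 10 counts in every library. Depth sets a floor of 0.149 and 0.0867 CPM in Zeb1WT/ApoeKO replicates 1 and 2. *Rnase4* was at or under it there, so its absence from these cells is not shown. With a common dispersion of 6.44, the standard errors of the fitted changes limit what 5 libraries can show.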
